A study of Mus musculus with 16 samples.

Results

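Cholesterol synthesis was followed through 8 genes, Hmgcs1, Idi1, Fdps, Fdft1, Sqle, Lss, Cyp51 and Insig1, of 20660 genes named on the array and 19022 tested. They were taken by name, as all non-control probes whose RefSeq accession belongs to 1 of these genes. That rule uses no measured value, but the genes were listed with earlier results of these data known. It gave 9 probes, 2 for Fdft1 and 1 for each of the others, and all 9 were well above background on all 16 arrays. The set had been listed as genes of sterol synthesis and uptake. Its members are 7 enzymes of synthesis and the regulator Insig1, with no uptake receptor among them, and uptake genes are described with the rest of the pathway. The arrays hold RNA of retina and retinal pigment epithelium (RPE) together, from 4 groups of 4 samples. These are nm3342 mutants at 1 month with wild types of that age, and nm3342 mutants at 1 year with wild types of that age. All 16 are labelled male on the C57Bl/6J background, and nm3342 is put forward by the submitters as a potential model for serous retinal detachment, a lifting of the retina off the RPE by fluid. The labels name no mutated gene, so no targeted gene could be used to check the genotypes. They give 4 mice per time point and do not say whether the animals were littermates.

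Cholesterol is built from acetyl-CoA by way of mevalonate, isoprenoid units, squalene and lanosterol. When sterol runs low in the endoplasmic reticulum, the transcription factor encoded by Srebf2 is released and raises the genes of most enzymes of this route and of lipoprotein uptake, while INSIG proteins hold it back when sterol is plentiful. The retina makes part of its own cholesterol, takes up lipoprotein cholesterol across the RPE, and disposes of sterol by efflux and by oxidation.

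Promoter sequence could be shown for 5 of the 8 members, Hmgcs1, Idi1, Cyp51, Lss and Insig1. Sqle, Fdps and Fdft1 are named only. The 250 bases before the gene's start are printed for Hmgcs1, the entry enzyme and the 1 member whose window holds the sterol response letters searched, for Cyp51, the 1 member that passed a test here, and for Insig1, the feedback regulator. The sequences are RefSeq's on build GRCm38.p6, read along the gene's own strand from 5′ to 3′: Hmgcs1 at chr13:119690101-119690350 on the plus strand, Cyp51 at chr5:4104698-4104947 on the minus strand and Insig1 at chr5:28071162-28071411 on the plus strand. Capitals mark matches on either strand to TCACNCCAC (the sterol response letters), CCAAT (the CCAAT box, read ATTGG on the other strand) and GGGCGG (the GC box, read CCGCCC on the other strand).
Hmgcs1: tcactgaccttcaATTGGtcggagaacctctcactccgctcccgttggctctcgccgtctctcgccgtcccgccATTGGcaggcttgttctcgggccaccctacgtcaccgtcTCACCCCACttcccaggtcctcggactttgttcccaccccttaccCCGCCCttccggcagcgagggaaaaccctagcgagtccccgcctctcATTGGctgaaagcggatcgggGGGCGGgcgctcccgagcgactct
Cyp51: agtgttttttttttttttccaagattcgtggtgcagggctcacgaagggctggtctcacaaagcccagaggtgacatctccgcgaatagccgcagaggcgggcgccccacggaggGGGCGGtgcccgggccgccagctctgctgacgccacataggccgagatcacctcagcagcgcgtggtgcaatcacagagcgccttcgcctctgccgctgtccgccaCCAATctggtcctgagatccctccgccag
Insig1: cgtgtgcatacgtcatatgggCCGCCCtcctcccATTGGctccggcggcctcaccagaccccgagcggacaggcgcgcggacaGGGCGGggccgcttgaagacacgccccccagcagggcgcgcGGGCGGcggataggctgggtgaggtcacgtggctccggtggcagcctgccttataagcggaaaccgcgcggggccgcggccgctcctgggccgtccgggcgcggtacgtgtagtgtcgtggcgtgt
The sterol response letters begin 137 bases before the start of Hmgcs1. They occur in 1.05% of 32851 promoter windows of the same length, CCAAT in 33.8% and GGGCGG in 32.7%. Both of the commoner motifs were found in all 5 windows. A match describes letters only, and a window without one says nothing about the factor.

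Between 82.1% and 89.6% of an array's spots, controls left out, had signal well above background, and the number of arrays limits the precision. All levels are log2 values relative to the array's own 75th percentile, so 0 is that percentile, and levels of different probes are not compared. Markers of the labelled tissue were detected: all 7 rod markers (Gnat1, Sag and others), all 5 RPE markers tested (Rpe65, Rdh5 and others) and all 6 Müller glia markers were well above background on every array. Of 6 RPE markers on the array, 5 were bright enough to be tested. All 5 skeletal muscle and all 3 erythrocyte markers were also well above background on every array, so detection alone does not check the label. On 3 arrays the sex-linked genes went against the male label, with Xist high and Ddx3y low. These were replicates 2 and 3 of the 1-month mutants and replicate 1 of the 1-year mutants. In whole tissue, fewer cells of a type and less RNA per cell cannot be told apart.

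In the mutants the sterol synthesis genes were slightly higher at both ages, and for no member did the difference pass the test. At 1 month all 8 members had a positive log2 change, between 0.08 and 0.32 with a median of 0.14, where 54.0% of all genes were positive and the median over all genes was 0.02. Wild-type 1-month replicate 1 held the lowest level of any array for 5 members, and without it the Cyp51 change at 1 month was slightly negative. At 1 year 7 of 8 were positive, Cyp51 being the exception, with a median of 0.19 against a median of -0.01 and 47.2% positive over all genes. These sizes correspond to at most 1.24-fold. By slide, the 8 members averaged per array were higher in 1-year mutants on slide 1 and not on slide 2, as given below.

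The route opens with Hmgcs1, the cytosolic synthase that makes HMG-CoA. Its levels were 4.25, 3.93, 4.12 and 3.96 in 1-month mutants, against 3.51, 4.09, 3.73 and 4.13 in 1-month wild types. At 1 year they were 4.00, 4.41, 4.35 and 4.15 in mutants, against 4.11, 4.03, 3.91 and 4.17 in wild types. The groups overlapped at both ages, and the difference was 0.21 ± 0.14 (standard error) at 1 month and 0.17 ± 0.14 at 1 year.

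Idi1, the isomerase that sets the balance of the 2 five-carbon isoprenoid units, had 2.16, 2.33, 2.23 and 1.97 in 1-month mutants, against 1.74, 2.01, 2.09 and 2.31 in 1-month wild types. In 1-year mutants it had 2.34, 2.29, 2.33 and 2.27, against 2.28, 2.12, 2.06 and 2.21 in 1-year wild types. The 1-year mutants were tightly grouped (2.30 ± 0.03, SD, n = 4), and only the highest wild-type array reached into their range. Fdps, which joins these units to farnesyl diphosphate, had 3.28, 3.27, 3.20 and 3.23 in 1-month mutants, against 2.91, 3.16, 3.12 and 3.26 in 1-month wild types. Its 1-year levels were 3.36, 3.60, 3.22 and 3.22 in mutants, against 3.41, 3.06, 2.97 and 3.28 in wild types. Both genes overlapped between genotypes, with differences of 0.14 ± 0.11 and 0.14 ± 0.11 for Idi1 and of 0.14 ± 0.11 and 0.17 ± 0.11 for Fdps at 1 month and at 1 year.

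The step that commits carbon to sterols is squalene synthesis by Fdft1, followed by epoxidation by Sqle, and these 2 enzymes had the smallest p-values of the members at both ages. Fdft1 had 1.44, 1.31, 1.26 and 1.09 in 1-month mutants, against 0.86, 1.17, 1.09 and 1.01 in 1-month wild types. In 1-year mutants it had 1.46, 1.32, 1.29 and 1.30, against 1.20, 1.05, 1.11 and 1.16 in 1-year wild types. The groups overlapped at 1 month and did not overlap at 1 year, where every mutant array was higher. Sqle had 3.33, 3.28, 3.20 and 3.29 in 1-month mutants, against 2.84, 2.92, 3.01 and 3.06 in 1-month wild types. Its 1-year levels were 3.26, 3.62, 3.35 and 3.13 in mutants, against 3.27, 2.97, 2.78 and 3.09 in wild types. Here the order was reversed: the groups did not overlap at 1 month, with every mutant array higher, and overlapped at 1 year.

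For Sqle the log2 difference was 0.32 ± 0.11 at both ages (1.24-fold, 95% interval 1.05 to 1.47), with adjusted p = 0.184 at 1 month and 0.262 at 1 year. For Fdft1 it was 0.24 ± 0.09 at 1 month (adjusted p = 0.189) and 0.21 ± 0.09 at 1 year (adjusted p = 0.359). The arrays lie on 2 slides, each with 2 arrays of every group. On slide 1 every group had an array in each row. On slide 2 all mutant arrays lay in row 2 and all wild types in row 1, so genotype and row cannot be told apart there. The Sqle difference was 0.40 on slide 1 and 0.23 on slide 2 at 1 month, and 0.61 on slide 1 and 0.02 on slide 2 at 1 year. Fdft1 differed by 0.18 and 0.30 at 1 month and by 0.22 and 0.19 at 1 year on slides 1 and 2. Leaving out the 3 arrays with high Xist gave 0.35 and 0.34 for Sqle, and 0.23 and 0.17 for Fdft1, at 1 month and at 1 year. The second Fdft1 probe was dim, between -5.26 and -4.21 on the 16 arrays, and its differences were -0.01 ± 0.19 at 1 month and -0.19 ± 0.19 at 1 year.

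Lss, which closes squalene epoxide into lanosterol, was the most variable member, with a pooled SD within groups of 0.32. It had -1.65, -1.68, -1.73 and -1.54 in 1-month mutants, against -1.85, -1.56, -1.63 and -2.07 in 1-month wild types. At 1 year it had -1.26, -0.71, -1.49 and -1.67 in mutants, against -0.98, -1.68, -1.97 and -1.33 in wild types. The 1-year arrays spread over more than the distance between the genotypes, which was 0.21 ± 0.21. Cyp51, the lanosterol demethylase, had -1.15, -1.17, -1.30 and -1.32 in 1-month mutants, against -1.59, -1.29, -1.22 and -1.17 in 1-month wild types. In 1-year mutants it had -1.14, -1.04, -1.05 and -1.08, against -0.89, -0.90, -0.84 and -1.15 in 1-year wild types. It was the 1 member with a negative difference at 1 year (-0.13 ± 0.10, adjusted p = 0.667), 3 of its 4 wild-type arrays lying above all 4 mutant arrays. The change of its genotype difference between the ages was -0.21 ± 0.13 (adjusted p = 0.658).

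Insig1, which retains the SREBP complex in the endoplasmic reticulum and is itself a target of it, had -1.03, -0.98, -1.06 and -0.86 in 1-month mutants, against -1.04, -0.98, -1.05 and -1.40 in 1-month wild types. Its 1-year levels were -0.82, -0.83, -0.71 and -0.79 in mutants, against -1.01, -1.11, -1.43 and -0.74 in wild types. A single wild-type array, replicate 4, kept the 1-year groups from separating. The difference was 0.14 ± 0.13 at 1 month and 0.29 ± 0.13 at 1 year (1.22-fold, adjusted p = 0.405). By slide, the 1-year difference was 0.50 on slide 1 and 0.07 on slide 2.

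**Figure D1:**
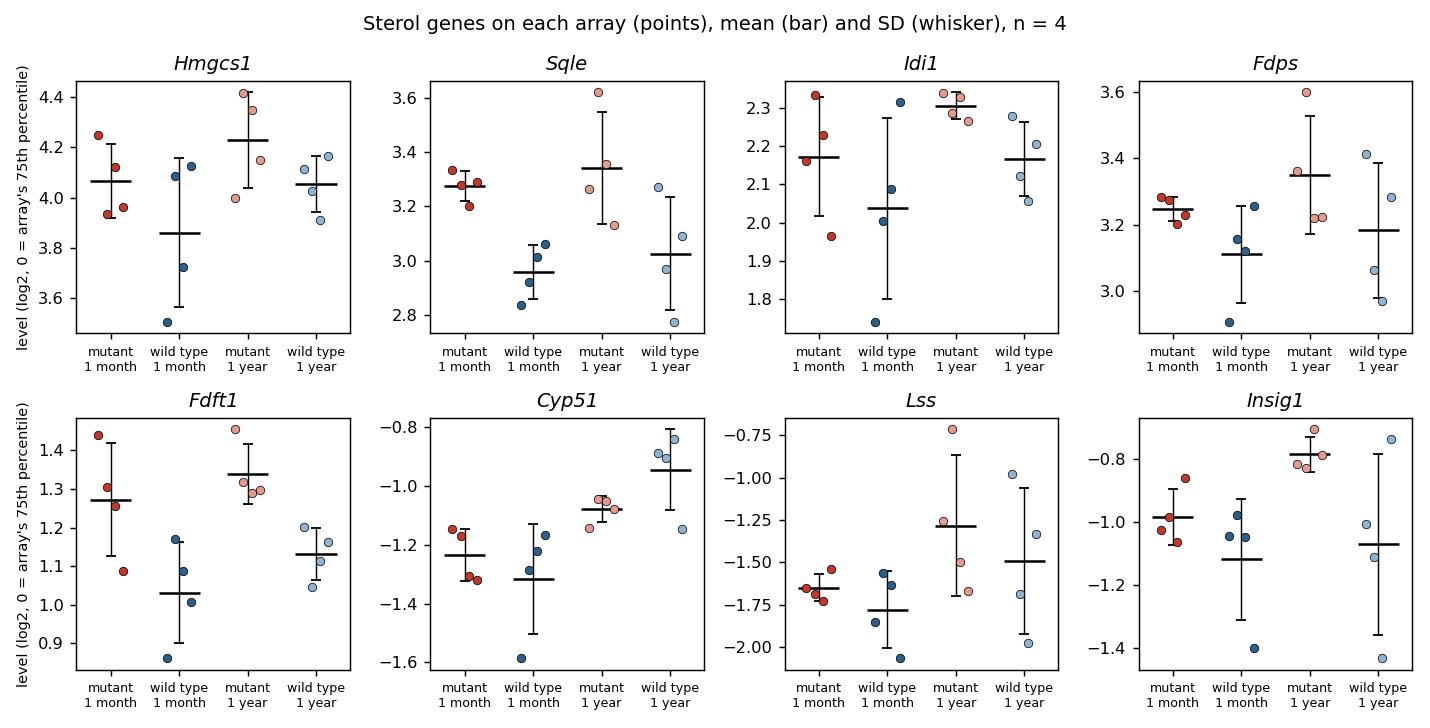
Levels of the 8 sterol genes on each of the 16 arrays (log2, 0 is the array's 75th percentile), with the 4 groups along the horizontal axis, points for arrays, bars for means and whiskers for SDs (n = 4). Sqle separates the genotypes at 1 month and Fdft1 at 1 year, and the other panels overlap between genotypes at both ages.

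Between genotypes 0 of 8 members were called at 1 month and 0 of 8 at 1 year (limma, Benjamini-Hochberg adjusted p under 0.05 over 19022 genes). Over all genes 2.72% were called at 1 month and 0.857% at 1 year, and 0 of 8 is near these shares. At an unadjusted p under 0.05 there were 2 members at 1 month (Sqle and Fdft1) and 3 at 1 year (Sqle, Fdft1 and Insig1), where 15.2% and 11.4% of all genes passed that mark. Groups that did not overlap were found for 1 of 8 members at each age, against 8.53% of all genes at 1 month and 7.83% at 1 year. The 95% intervals of all 8 members lay inside a 2-fold change in either direction at both ages, the widest reaching 0.67 on the log2 scale, for Lss. For 5 of 8 members at 1 month, and for 5 of 8 at 1 year, they lay inside 0.5 on the log2 scale. The genotype difference itself did not pass the test of a change between the ages for any member (0 of 8, with 0.421% of all genes called and 0 of 8 members at an unadjusted p under 0.05). For Sqle the difference between the ages was 0.00, with an interval of -0.34 to 0.34.

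**Figure D2:**
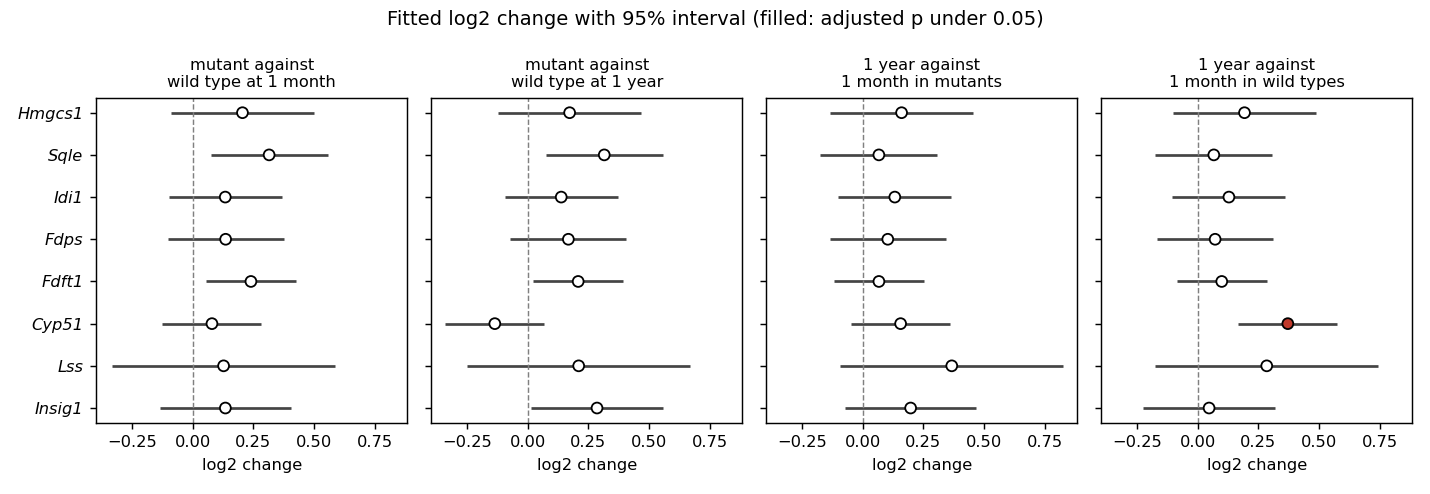
Fitted log2 change of each sterol gene (horizontal axis) with its 95% interval, in 4 comparisons over 16 arrays; filled points have an adjusted p under 0.05. The single filled point is Cyp51 at 1 year against 1 month in wild types, and most intervals cross 0.

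With age the same genes lay slightly higher, again by small amounts, and 1 of them passed the test. Cyp51 rose in wild types by 0.37 ± 0.10 (1.29-fold, 95% interval 1.12 to 1.49, adjusted p = 0.0192), with -0.94 ± 0.14 at 1 year and -1.32 ± 0.19 at 1 month (SD, n = 4). The groups touched but did not overlap, the lowest 1-year array being at -1.15 and the highest 1-month array at -1.17. In mutants Cyp51 differed by 0.16 ± 0.10 between the ages (adjusted p = 0.376). The wild-type rise was 0.57 on slide 1 and 0.18 on slide 2. It did not pass the test without wild-type 1-year replicate 1, 2 or 3 (adjusted p = 0.0605, 0.0504 and 0.0528), nor when only the 8 wild-type arrays were fitted (adjusted p = 0.0937).

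All 8 members had a positive change between 1 month and 1 year in each genotype, with a median of 0.14 in mutants and 0.11 in wild types. Over all genes 40.2% were positive in mutants and 44.7% in wild types, with medians of -0.05 and -0.03. The 2 age comparisons use different arrays, while each shares its arrays with the genotype comparisons. Called members numbered 0 of 8 in mutants, against 6.7% of all genes, and 1 of 8 in wild types, against 12.4% of all genes. Lss had the largest difference in mutants, 0.37 ± 0.21 (adjusted p = 0.355), and it overlapped between the ages. Cyp51 and Insig1 did not overlap between the ages in mutants (2 of 8 members, against 13.8% of all genes), and Cyp51 did not overlap in wild types (1 of 8, against 18.9%). Insig1 lay at -0.79 ± 0.06 in 1-year mutants and -0.98 ± 0.09 in 1-month mutants, a difference of 0.20 ± 0.13 (adjusted p = 0.404).

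Seen across the 4 groups, 7 of the 8 members had their highest mean in 1-year mutants and all 8 had their lowest in 1-month wild types. For Sqle the means were 3.34 ± 0.21 in 1-year mutants, 3.27 ± 0.06 in 1-month mutants, 3.03 ± 0.21 in 1-year wild types and 2.96 ± 0.10 in 1-month wild types (SD, n = 4). The 2 mutant means differed by less than the SD of the 1-year mutants, and the 2 wild-type means by less than either SD. For Fdft1 the order was the same, with 1.34 ± 0.08, 1.27 ± 0.15, 1.13 ± 0.07 and 1.03 ± 0.13, and no neighbouring pair in that order differed by more than the sum of its SDs. For Hmgcs1 the 1-year mutants led with 4.23 ± 0.19, the 1-month mutants (4.07 ± 0.15) and 1-year wild types (4.05 ± 0.11) were level within their spread, and the 1-month wild types were lowest with 3.86 ± 0.30. Cyp51 had another order: 1-year wild types were highest at -0.94 ± 0.14, followed by 1-year mutants at -1.08 ± 0.04, 1-month mutants at -1.24 ± 0.09 and 1-month wild types at -1.32 ± 0.19.

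The 8 genes varied together from array to array. When each gene was centred on its mean over the 16 arrays and the 8 were averaged, the arrays ran from -0.34 to 0.32 on the log2 scale. The average lay between -0.04 and 0.07 in 1-month mutants, against -0.34 and -0.07 in 1-month wild types, which did not overlap. It lay between 0.05 and 0.32 in 1-year mutants, against -0.19 and 0.16 in 1-year wild types, which did. By slide, the 1-year mutants had 0.32 and 0.15 on slide 1, against -0.07 and -0.19 in wild types. On slide 2 the 1-year mutants had 0.14 and 0.05, against 0.16 and 0.07 in wild types. Wild-type 1-month replicate 1 stood lowest and held the lowest level of all 16 arrays for 5 members. Mutant 1-year replicate 2 stood highest and held the highest level for 4 members, Lss among them. No test is given for this average, since the members are not replicates of a condition.

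**Figure D3:**
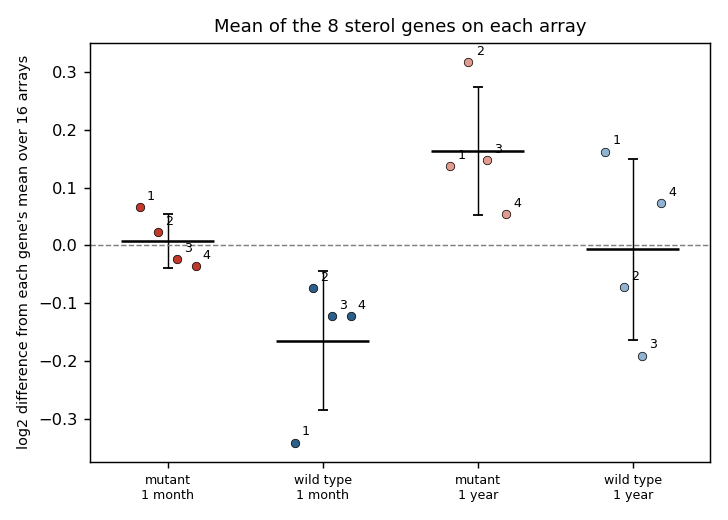
Mean of the 8 sterol genes on each array, each gene centred on its own mean over 16 arrays (vertical axis, log2), by group, with replicate numbers beside the points, group means as bars and SDs as whiskers (n = 4). The 1-month wild types lie between -0.34 and -0.07, below the 1-month mutants, and the 1-year groups overlap.

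Over the 16 arrays 27 of the 28 pairs of members had a positive Pearson correlation, with a median of 0.56 and a range of -0.15 to 0.88. When group means were removed, 24 of 28 pairs were positive, with a median of 0.40 and a range of -0.59 to 0.89. Sqle and Fdps were the closest pair on both counts (0.88 over arrays and 0.89 within groups), followed by Fdps and Lss over arrays (0.80, and 0.77 within groups) and by Sqle and Lss within groups (0.80, and 0.70 over arrays). Insig1 followed the enzymes least within groups, with a median correlation of 0.03 to the other members, and with Cyp51 its correlation was -0.59. All these points share the same 16 arrays and the same scaling, so the values are descriptions.

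**Figure D4:**
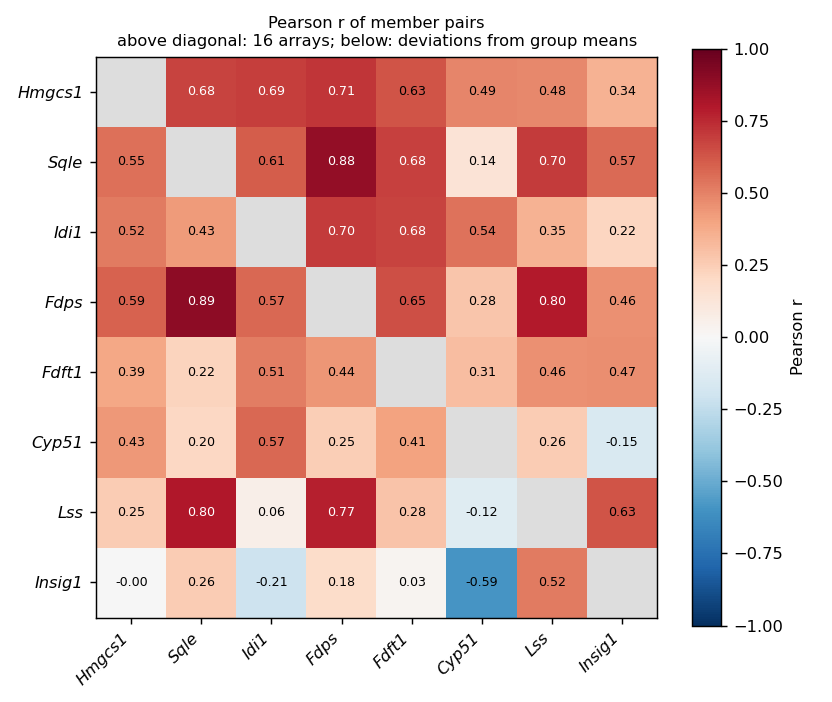
Pearson correlation of each pair of sterol genes, over 16 arrays above the diagonal and over deviations from the group means below it (colour and printed value). Sqle with Fdps is the highest cell on both sides of the diagonal, and Insig1 with Cyp51 is the most negative.

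The genes whose pattern over the 16 arrays was most like the mean of the 8 members, of 17804 compared, were S100a16 (r = 0.95), Abcd3 (0.95), Bcl2l15 (0.95), Slc25a13 (0.94) and Nmi (0.93). Within groups these correlations were between 0.87 and 0.93. The median gene had r = -0.09, and 0.62 marked the 90th percentile. Of the 13 other enzymes on the synthesis list, 8 lay above that percentile. Nsdhl, a sterol dehydrogenase acting after Cyp51, ranked 7 with r = 0.93, and Msmo1, the methyl oxidase of the same stretch, ranked 14 with r = 0.92 (both singled out after their values were seen).

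Some lists of cell-type markers moved with the same arrays, most of them less so once group means were removed. The mean of 7 microglia and macrophage markers correlated with the member mean at r = 0.72 over 16 arrays and 0.27 within groups. It ran from 0.51 to 0.70 in 1-month mutants, against 0.03 to 0.21 in 1-month wild types, with all 7 markers well above background. At 1 year it ran from 0.97 to 1.19 in mutants, against 0.72 to 1.13 in wild types. The mean of 6 Müller glia markers correlated at 0.63 over arrays and 0.02 within groups, and ran from 3.52 to 3.74 in 1-month mutants, against 3.32 to 3.65 in 1-month wild types, and from 3.76 to 3.98 in 1-year mutants, against 3.64 to 3.81 in 1-year wild types. The mean of 5 skeletal muscle markers correlated at 0.62 and 0.28, and ran from 0.82 to 1.82 in 1-month mutants, against -0.29 to 0.92 in 1-month wild types. The mean of 5 fibroblast and matrix markers had the highest correlation within groups, 0.41 (0.31 over arrays), and ran from 4.40 to 4.67 in 1-month mutants, against 2.92 to 3.66 in 1-month wild types. The mean of 5 RPE markers correlated at 0.37 and 0.25, and ran from 3.23 to 3.72 in 1-month mutants, against 2.71 to 3.29 in 1-month wild types. The mean of 5 melanin synthesis markers correlated at 0.16 and -0.07, and ran from 2.88 to 3.50 in 1-month mutants, against 2.04 to 2.69 in 1-month wild types. Its order was reversed at 1 year, with 2.45 to 2.95 in mutants, against 3.07 to 3.50 in wild types. For the change of the genotype difference between the ages, 2 of 5 melanin markers were called, against 0.421% of all genes. The muscle, matrix and RPE means overlapped between genotypes at 1 year. Called higher in 1-month mutants were 4 of 5 melanin markers (median log2 change 0.83), 3 of 5 RPE markers (0.66), 3 of 7 microglia markers (0.55), 2 of 5 matrix markers (1.17), 1 of 5 muscle markers (0.68) and 1 of 6 Müller markers (0.16). At 1 year 1 of 7 microglia markers and none (0) of these other lists' markers was called higher. The means of the remaining lists correlated with the member mean over arrays at -0.43 (rod), -0.44 (oligodendrocyte), -0.36 (lens fibre), -0.06 (adipocyte), 0.06 (erythrocyte) and 0.27 (endothelium). The lens fibre mean was far lower at 1 year in wild types, at -3.07 to 0.83, against 5.02 to 5.67 at 1 month. There 4 of 5 lens markers were called lower with age. In mutants it ran from -1.50 to 4.79 at 1 year, against 1.69 to 6.78 at 1 month, with 1 of 5 called lower. Of 4 endothelium markers 1 was called higher in mutants at each age, and of 7 rod markers 1 was called lower at 1 year. The rod mean ran from 6.68 to 6.92 in 1-year mutants, against 6.98 to 7.06 in 1-year wild types, without overlap. With age, 5 of 7 rod markers were called lower in mutants and 0 in wild types. Of 7 microglia markers 3 were called higher with age in mutants and 4 in wild types. Over all genes 6.7% and 12.4% were called in these 2 comparisons. The share of spots above background correlated with the member mean at -0.33 over arrays and -0.40 within groups. The part of these lists and of this share in the sterol gene differences between genotypes or ages was not tested.

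Around the 8 members the pathway was described through 6 lists holding 70 genes, all of which were tested. Between genotypes 1 of the 70 was called at 1 month and 0 at 1 year, against 12 with age in mutants (9 higher, 3 lower) and 17 with age in wild types (15 higher, 2 lower). Over all genes 2.72% and 0.857% were called between genotypes, 6.7% with age in mutants and 12.4% with age in wild types, and the list counts that follow stand against these shares. The genotype difference itself changed with age for 1 of the 70, and the same gene, Abca1, accounts for it and for the 1-month call. For the other 69, an age change called in 1 genotype is therefore not shown to differ from that in the other.

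The 20 synthesis enzymes include the 7 enzymes among the members, so their counts partly restate the values above. Of the 20, 0 were called between genotypes at either age. At 1 month 19 of 20 were positive and at 1 year 19, with medians of 0.14 and 0.17. With age, 0 of 20 were called in mutants and 2 in wild types, Cyp51 and Hsd17b7, a share near that of all genes. Hsd17b7, a ketoreductase of the later steps, had -1.28, -1.22, -1.24 and -1.17 at 1 year, against -1.73, -1.34, -1.45 and -1.61 at 1 month in wild types, and rose by 0.30 ± 0.09 (adjusted p = 0.0374), while in mutants it differed by 0.07 ± 0.09. Its second probe differed by 0.12 ± 0.10 (adjusted p = 0.497), and with the mean of both probes the adjusted p was 0.0971. The call was lost when any 1 of 8 arrays was left out, all 4 wild types of 1 year among them, with an adjusted p of up to 0.108, and without the 3 arrays with high Xist (adjusted p = 0.0759).

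Among 10 genes of SREBP regulation, 0 were called between genotypes and 1 with age. Srebf2 had -1.33, -1.33, -1.31 and -1.32 in 1-month mutants, against -1.80, -1.28, -1.69 and -1.57 in 1-month wild types, and -1.46, -0.56, -1.33 and -1.25 in 1-year mutants, against -1.58, -1.36, -1.26 and -1.34 in 1-year wild types. The groups overlapped, with differences of 0.26 ± 0.16 at 1 month and 0.23 ± 0.16 at 1 year. A second Srebf2 probe gave another picture with age: it rose by 0.51 ± 0.11 in mutants (adjusted p = 0.0152) and by 0.63 ± 0.11 in wild types (adjusted p = 0.00237), where the brighter probe differed by 0.17 ± 0.16 and 0.20 ± 0.16. Mylip, a ubiquitin ligase that sends lipoprotein receptors to degradation, rose with age in mutants by 0.58 ± 0.15 (adjusted p = 0.0278). Its levels were 0.92, 0.98, 1.29 and 0.93 in 1-year mutants, against 0.09, 0.60, 0.51 and 0.58 in 1-month mutants. In wild types it differed by 0.00. Its second probe differed by 0.52 ± 0.23 in mutants (adjusted p = 0.222) and by 0.42 ± 0.23 in wild types, so the probes disagree on the contrast between genotypes. The call was lost without 1-month mutant replicate 1 or 3 or 1-year mutant replicate 2 or 3, with an adjusted p of up to 0.0848, and without the 3 arrays with high Xist (0.73, adjusted p = 0.130).

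None of the 11 genes of sterol uptake and lysosomal release was called between genotypes (0 of 11 at each age). With age, 4 of the 11 uptake genes were called in mutants and 7 in wild types. Cd36, a scavenger receptor for oxidised lipoprotein and fatty acids, rose most: it had -2.07, -1.77, -2.09 and -2.08 in 1-year mutants, against -3.57, -3.58, -3.39 and -3.08 in 1-month mutants, and -2.31, -1.95, -1.83 and -1.70 in 1-year wild types, against -3.25, -3.58, -3.76 and -3.28 in 1-month wild types. The rise was 2.65-fold in mutants (adjusted p = 7.14e-05) and 2.87-fold in wild types (adjusted p = 1.6e-05), with no overlap between the ages in either genotype. Npc1, which carries sterol out of lysosomes, rose by 0.30 ± 0.08 in mutants (adjusted p = 0.0276) and by 0.31 ± 0.08 in wild types (adjusted p = 0.0142). Npc2, its soluble partner, rose in wild types by 0.57 ± 0.10, Lipa, the lysosomal lipase that frees cholesterol from its esters, by 0.90 ± 0.15, and Lrp1, a large lipoprotein receptor, by 0.46 ± 0.09 (adjusted p = 0.00246, 0.000919 and 0.00298). In mutants these 3 differed by 0.23 ± 0.10, 0.31 ± 0.15 and 0.28 ± 0.09 and did not pass the test. The VLDL receptor gene Vldlr fell by 0.45 ± 0.09 in mutants (adjusted p = 0.00839) and by 0.35 ± 0.09 in wild types (adjusted p = 0.0238). Its second probe fell by 0.37 ± 0.10 in mutants and differed by 0.00 in wild types. Scarb1, the HDL receptor gene, fell by 0.35 ± 0.09 in mutants (adjusted p = 0.0308) and differed by -0.10 ± 0.09 in wild types. Its second probe differed by -0.36 ± 0.15 in mutants (adjusted p = 0.186) and by 0.28 ± 0.15 in wild types. The calls in mutants of Npc1 and Scarb1 were each lost when any 1 of 6 mutant arrays was left out, with adjusted p of up to 0.0799 and 0.0985. Without the 3 arrays with high Xist, all of them mutants, the mutant calls of Vldlr, Npc1 and Scarb1 were lost (adjusted p = 0.151, 0.105 and 0.377), at changes of -0.44, 0.38 and -0.31.

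Abca1 gave the largest genotype difference of the 70 genes at 1 month. This transporter moves cholesterol out of cells onto apolipoproteins. It had -0.41, -0.45, -0.49 and -0.44 in 1-month mutants, against 0.42, 0.32, 0.49 and 0.57 in 1-month wild types, and 0.38, 0.54, 0.63 and 0.37 in 1-year mutants, against 0.33, 0.51, 0.48 and 0.77 in 1-year wild types. The 1-month mutants stood apart from all 3 other groups, which overlapped. Abca1 was lower in 1-month mutants by 0.90 ± 0.09 on the log2 scale (0.537-fold, adjusted p = 0.000169), differed by -0.04 ± 0.09 at 1 year (adjusted p = 0.909), and the change of that difference between the ages was 0.85 ± 0.13 (adjusted p = 0.0127). In mutants it rose with age by 0.93 ± 0.09 (adjusted p = 3.47e-05). The 1-month difference was -0.81 on slide 1 and -0.98 on slide 2. Without the 3 arrays with high Xist the change between the ages was 0.87 and did not pass the test (adjusted p = 0.122), while the 1-month difference was -0.88 (adjusted p = 0.0140).

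The 12 other genes of efflux, esterification and oxidation had no call between genotypes, so the list stood at 1 of 13 called at 1 month and 0 of 13 at 1 year. With age, 5 of 13 were called in mutants and 6 in wild types. Cyp27a1, a mitochondrial sterol hydroxylase, rose by 0.91 ± 0.12 in mutants (adjusted p = 0.000217) and by 0.70 ± 0.12 in wild types (adjusted p = 0.00103), but after normexp background correction the values were 0.22 and 0.21 and neither passed the test. Ch25h, another sterol hydroxylase, rose in wild types by 1.23 ± 0.29 (adjusted p = 0.0124) and differed by 0.81 ± 0.29 in mutants (adjusted p = 0.123). Soat1, which esterifies cholesterol for storage, rose in wild types by 0.47 ± 0.11 (adjusted p = 0.0130) and in mutants by 0.41 ± 0.11 (adjusted p = 0.0413). After normexp correction its wild-type change was 0.22 (adjusted p = 0.148). Nr1h3, the liver X receptor that senses oxysterols, rose in wild types by 0.51 ± 0.08 (adjusted p = 0.00105) and differed by 0.26 ± 0.08 in mutants (adjusted p = 0.0819). Its second probe rose by 1.03 ± 0.13 in wild types and by 0.52 ± 0.13 in mutants. Apoe, the lipoprotein apolipoprotein made by Müller glia, rose in mutants by 0.49 ± 0.12 (adjusted p = 0.0239) and in wild types by 0.48 ± 0.12 (adjusted p = 0.0178). The mutant call was lost when any 1 of 5 mutant arrays was left out (adjusted p up to 0.0865). Abcg4, a sterol exporter of neurons, fell in mutants by 0.44 ± 0.07 (adjusted p = 0.00236) and differed by -0.21 ± 0.07 in wild types (adjusted p = 0.0879). Its second probe fell by 0.41 ± 0.08 in mutants and differed by -0.22 ± 0.08 in wild types. Without the 3 arrays with high Xist the mutant calls of Abcg4 and Apoe were lost (adjusted p = 0.0735 and 0.423), at changes of -0.45 and 0.34.

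**Figure D5:**
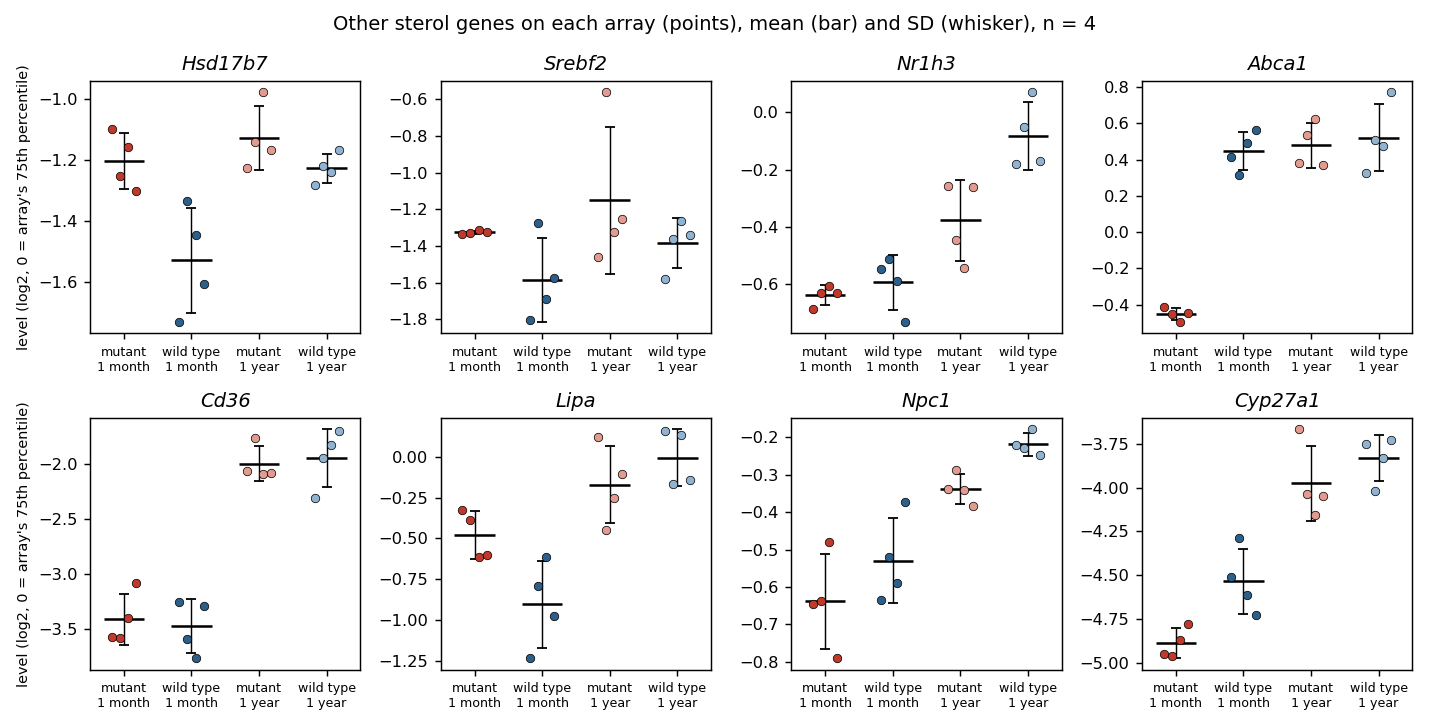
Levels of 8 other sterol genes on each array (log2, 0 is the array's 75th percentile) by group, with points for arrays, bars for means and whiskers for SDs (n = 4). Abca1 is low in 1-month mutants alone of the 4 groups, Cd36 and Cyp27a1 are higher at 1 year in both genotypes, and Srebf2 overlaps between genotypes at both ages.

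The last 2 lists hold genes of the routes that branch from the same precursors. None of the 7 genes of the nonsterol isoprenoid branch was called in any of the 5 comparisons (0 of 7 each). Of 10 genes of fatty acid synthesis, 0 were called between genotypes and 2 with age in each genotype, against 6.7% of all genes in mutants and 12.4% in wild types. Scd1, a stearoyl desaturase, rose by 0.81 ± 0.14 in mutants (adjusted p = 0.00333) and by 0.49 ± 0.14 in wild types (adjusted p = 0.0414). Scd2, its neuronal relative, rose in mutants by 0.35 ± 0.10 (adjusted p = 0.0492) and differed by -0.11 ± 0.10 in wild types. Fasn, the fatty acid synthase, fell in wild types by 0.30 ± 0.09 (adjusted p = 0.0456) and differed by -0.01 ± 0.09 in mutants. The Scd2 call was lost under 9 of 15 other settings and the Fasn call under 8 of 15. With single arrays left out, these calls were lost for 13 and 14 of the 16 arrays, and the Scd1 call in wild types for 9. Without the 3 arrays with high Xist the Scd1 calls in mutants and in wild types had adjusted p = 0.0719 and 0.0770.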

How the data were processed

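RNA of retina with RPE from 16 mice was hybridised to 1-colour Agilent arrays. Per the file headers, Feature Extraction 11.0.1.1 gave the deposited intensity of each spot, background-subtracted and spatially detrended; array identifiers refer to an mm9 design. The authors also deposited a log2 matrix, whose columns share 1 distribution; its method is not given in the sources used here. From the intensities, log2 values minus the array's 75th percentile were computed, outlier spots removed, spots averaged per probe, and probes kept if well above background on at least 4 of 16 arrays. The brightest probe stood for a gene; 27235 of 55681 probes matched 1 RefSeq gene. limma 3.58.1 (R 4.3.3) fitted 4 group means over 16 arrays, with 5 contrasts and Benjamini-Hochberg adjustment over 19022 genes; an adjusted p under 0.05 was a call. The fit was tested on simulated data. P-values set a difference of group means against the spread between these samples within the 4 groups.

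Members and lists were chosen with earlier results of these data known. Other pathway genes named were Srebf2 and up to 4 called genes per list and contrast with the smallest adjusted p. Mean spot signal was not in the files, so normexp correction (offset 50) used median signal. Replicate numbers came with no stated pairing, and alternatives changed normalization, background, filter, probe choice, slide, array row, samples and variance model.
Some genes that this rule names are not reported here.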

Additional observations from a re-analysis of the deposited data

Results flagged for a closer look

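Of 112 groups of 4 arrays examined over 28 genes, 5 held an array whose distance to the others passed Dixon's 95% critical value, where chance flags about 5% of groups. The 1 member among them was Insig1, at -1.40 in wild-type 1-month replicate 4, with the other 3 arrays between -1.05 and -0.98. Mylip was high in mutant 1-year replicate 3, at 1.29, with the others between 0.92 and 0.98. Cd36 was high in mutant 1-year replicate 2, at -1.77, with the others between -2.09 and -2.07. Npc2 was low in wild-type 1-month replicate 1, at 1.88, with the others between 2.21 and 2.23. Ch25h was high in wild-type 1-year replicate 3, at -1.35, with the others between -2.33 and -2.17.

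Abca1 was the 1 pathway gene whose genotype difference changed between the ages, by 0.85 ± 0.13 (limma, adjusted p = 0.0127).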

How the results depend on the processing

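Counts of called members stayed at 0 in both genotype comparisons, in their difference between the ages and in mutants with age under every alternative run. In wild types with age the count of 1, Cyp51, became 0 on slide 1 alone, on slide 2 alone and with only the 2 groups compared, and ranged from 0 to 1 when single arrays were left out; fewer arrays entered each of these fits. Of 592 member changes under other alternatives 589 kept their direction and side of the threshold or changed sign only with intervals over 0 (22), and 3 lost a call. With single arrays left out, 637 of 640 kept them or changed sign only with intervals over 0 (34), and 3 lost a call. Only the Cyp51 rise in wild types was called in the main fit, so no other member change could lose a call. The changes counted as kept are therefore mostly ones that were uncalled in both fits. Deviations of same-numbered mutant and wild-type arrays from their group means correlated between -0.54 and 0.16. Such whole-array correlations cannot show whether the samples were paired. With replicate number as a block the called members were 0, 0, 0, 0 and 1.

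Genes called over the whole array moved more. At 1 month 518 became 311 with the replicate block, 161 with only the 2 groups, 133 without the 3 arrays with high Xist, 244 with Xist as a covariate, and 1 and 17 on slides 1 and 2. At 1 year 163 became 96, 86 and 78 under the first 3 of these, and 10 and 12 by slide. The difference between the ages had 80, against 43 with the block, 12 without the Xist-high arrays, and 1 and 0 by slide. With age, 1274 in mutants became 840 with only the 2 groups, 275 without the Xist-high arrays, and 37 and 162 by slide; 2352 in wild types became 189 and 725 by slide. With single arrays left out the counts ran 227 to 931, 84 to 308, 33 to 195, 784 to 1924 and 1513 to 2789.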
